A study of Mus musculus with 13 samples.

Results

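The genes described here were 46 mouse chromatin regulator genes, named as a list by their protein function and found among the 21951 protein-coding genes of the GENCODE vM21 annotation (mm10). Each gene was taken with 10 kb on each side of its annotated span, which is called its window below, and a peak was counted when it shared at least 1 bp with the window. The genes fell into 9 classes by the protein they encode, namely 4 components of Polycomb repressive complex 2 (PRC2), 9 histone lysine demethylases, 9 histone lysine methyltransferases and their core subunit, 5 DNA methyltransferases and methyl-CpG binding domain proteins, 2 CHD remodelers, 6 SWI/SNF subunits, 2 acetyltransferases, 7 deacetylases and corepressors, and 2 subunits of the chromatin assembly factor CAF-1. A further 132 chromatin genes served for comparison.

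Chromatin regulators add or remove chemical marks on histones and DNA, or move and assemble nucleosomes, and so set how accessible a gene is to transcription factors. During reprogramming of fibroblasts to pluripotency, the somatic chromatin state has to be dismantled, and several of these proteins are known to slow this process (such as CAF-1, the DNA methyltransferase DNMT1 and the histone H3 lysine methyltransferases of the SUV39H family) or to help it (such as the demethylase KDM6A and the SWI/SNF complex). SMAD3 is a transcription factor that acts downstream of TGF-β and Activin receptors, and OCT4 is a POU-family factor that binds an octamer sequence.

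The study asked where SMAD3 and OCT4 bind in mouse embryonic fibroblasts (MEFs) on day 3 of reprogramming. The MEFs carried a doxycycline (dox)-inducible cassette of c-Myc, Klf4, Oct4 and Sox2 (MKOS) with an mOrange reporter, an rtTA transgene and a Nanog-GFP reporter, on a mixed genetic background that included CD1, and had been infected with a retrovirus that expresses a constitutively active Smad3 (Smad3CA). Dox+ cells were cultured with 1 µg/ml dox in serum-containing embryonic stem cell medium with LIF, and Dox- cells in the same medium without it. This is the concentration on the sample labels, and the study's general methods for reprogramming give a lower one. ChIP-seq was made for OCT4 in Dox+ cells (3 replicates), for SMAD3 in Dox+ cells (3 replicates) and for SMAD3 in Dox- cells (3 replicates), with 2 inputs for each condition. All groups therefore contained Smad3CA, Dox- cells were uninduced MEFs and not cells without SMAD3 activity, and no OCT4 sample without dox was analysed here. Whether the replicates came from separate cultures is not stated in the sources used here, so the spread between them may be technical. Cell identity could not be checked against marker genes, since only binding was measured.

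The lists differed greatly in length. The SMAD3 Dox+ replicate lists held 420, 23981 and 10374 peaks, the SMAD3 Dox- lists 1656, 18588 and 4038, and the OCT4 lists 1181, 1115 and 102 distinct regions. The lists called on pooled replicates, named merged lists here, held 2022 OCT4 regions, 12576 SMAD3 Dox+ peaks and 11512 SMAD3 Dox- peaks. Read totals per library were not given in the sources used here, so the depth is unknown and no counting interval can be given. A gene without a peak is a gene without a detected peak.

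SMAD3 peaks lay at most of the chromatin regulator genes in both conditions. In the merged Dox+ list 41 of the 46 windows held a peak, beside 52.5% of all protein-coding genes. In the merged Dox- list 44 of the 46 windows held a peak, beside 47.9% of all protein-coding genes. The members are longer than most genes, with a median span of 54.5 kb against 17.4 kb, and a longer window can hold more peaks. When the share over all genes was weighted to the members' own classes of gene span (10 classes of equal size), it was 61.4% for Dox+ and 56.5% for Dox-. Of the 132 other chromatin genes, 112 had a Dox+ peak and 109 a Dox- peak, which is 84.8% and 82.6%. These shares are descriptions of the lists and were not tested.

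Many of the peaks lay at the genes' own transcript starts. A merged Dox+ peak lay within 1000 bp of an annotated start of its own gene for 37 members, beside 42.5% of all protein-coding genes, and a Dox- peak for 40 members, beside 37.7%. The span-weighted shares were 51.8% and 46.8%. This weighting does not take in the number of annotated starts, which reached 42 for Smarca2, and a gene with more starts can hold more start peaks. The members' own shares were 80.4% and 87.0%. Of the 132 other chromatin genes, 104 had a Dox+ start peak and 103 a Dox- one, which is 78.8% and 78.0%. All 37 members with a Dox+ peak at a start also had a Dox- peak at a start, as did 79.0% of all protein-coding genes with a Dox+ start peak and 93.3% of the other chromatin genes with one. In the other direction, 37 of the 40 members with a Dox- start peak had a Dox+ one (92.5%). The share was 89.0% of all such genes and 94.2% of such genes among the other chromatin genes. Dnmt3b, which encodes a de novo DNA methyltransferase, Mbd3, which encodes a subunit of the nucleosome remodeling and deacetylase (NuRD) complex, and Suv39h2, a histone H3 lysine methyltransferase gene, had a start peak only in the merged Dox- list, with fold enrichments over input of 2.72, 2.04 and 1.97. Each of these peaks overlapped the Dox- list of replicate 2 and no other Dox- replicate list, and Suv39h2 also had a start peak of fold 1.72 in the Dox+ list of replicate 2. No member had a merged start peak only in Dox+, and these differences were not tested.

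**Figure D1:**
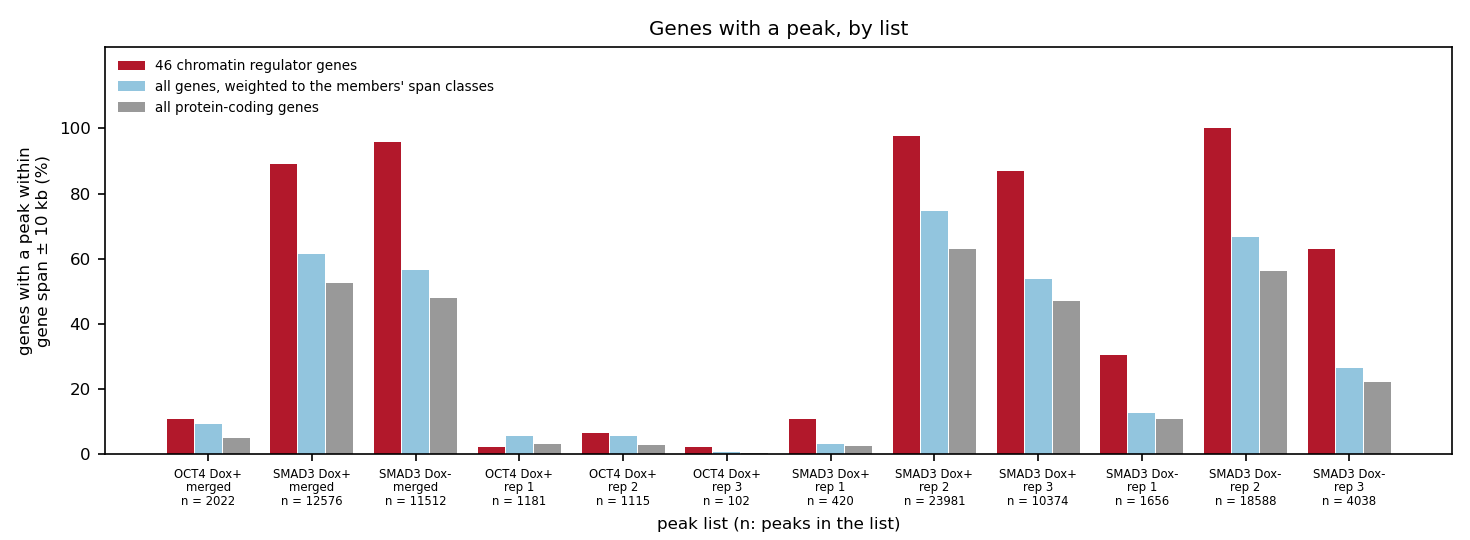
Percent of genes with a peak in the gene span plus 10 kb, for the 46 chromatin regulator genes (red), all protein-coding genes weighted to the members' gene-span classes (blue) and all protein-coding genes (grey), in the 3 merged and 9 replicate lists (n gives the peaks in each list). The members' bars for SMAD3 stand above the grey bars in all 8 SMAD3 lists. For OCT4 they stay at or below 10.9%. They stand above grey in the merged list (4.85%) and in replicates 2 and 3, and below it in replicate 1 (2.17% against 2.95%).

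Many windows also took in the starts of neighbouring genes. Of the 89 merged Dox+ peaks in the windows, 45 lay at a start of the member itself, 21 at a start of another protein-coding gene and 23 elsewhere. Of the 79 Dox- peaks, 45 lay at an own start, 21 at another gene's start and 13 elsewhere. In all, 74.2% of the Dox+ peaks and 83.5% of the Dox- peaks in the windows lay at a start, beside 69.9% and 67.1% of all peaks of these lists. Thus the window count and the start count describe different things, and the start count is the one that concerns the member's promoter. Setdb1, which encodes a histone H3 lysine methyltransferase, is an example. Its only peak in either merged list lay at the start of the neighbouring gene Cers2 (fold 2.05 in Dox+ and 1.90 in Dox-), and no list held a peak at a Setdb1 start.

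Peaks in the members' windows were shared between the conditions more often than peaks in general. Of the Dox+ peaks in the windows, 78.7% overlapped a merged Dox- peak, against 61.0% of all Dox+ peaks, and of the Dox- peaks 83.5% overlapped a Dox+ peak, against 66.3%. They were also found in at least 2 replicate lists of their own group more often, namely 78.7% against 68.9% in Dox+ and 55.7% against 35.2% in Dox-. Their median fold enrichment was near that of their list, 2.41 against 2.3 in Dox+ and 2.3 against 2.32 in Dox-. The members' peaks were also wider, with a median of 642 bp against 486 bp in Dox+ and 863 bp against 501 bp in Dox-. A wider peak can overlap more peaks when 1 bp suffices. These shares were not counted for the other chromatin genes, and no test was made of the differences.

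Among the PRC2 genes, all 4 had a start peak in both merged lists. Jarid2 encodes a DNA-binding cofactor that helps bring PRC2 to its targets. Its start peak had a fold of 2.08 in the merged Dox+ list and 5.24 in the merged Dox- list, the latter at the 98.3th percentile of that list. The replicate lists gave 2.78 and 2.04 in Dox+ replicates 2 and 3 and 4.20 in Dox- replicate 2, and no peak in the other 3 lists. Suz12, a core PRC2 subunit gene, had 2.70 in Dox+ and 4.42 in Dox- in the merged lists, but its Dox- replicates at 2.37, 2.34 and 2.29 lay below its Dox+ replicates 2 and 3 at 2.56 and 2.93. Ezh2, the gene of the catalytic subunit, had 3.08 in Dox+ and 2.08 in Dox-, and Eed, which encodes the subunit that reads the PRC2 mark, had 3.17 and 2.28. The Eed replicates were at 2.41 and 3.28 in Dox+ and at 2.89 and 2.83 in Dox-, so these values overlapped. For Suz12 the merged and replicate lists thus gave opposite orders, and for Eed the replicates did not bear out the merged order.

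Of the 9 demethylase genes, 8 had a start peak in both merged lists. Kdm3a, an H3K9 demethylase gene, had folds of 4.35 in Dox+ and 3.16 in Dox-. Kdm2b, whose product binds unmethylated CpG islands, had highest start folds of 4.01 and 2.36, but at different starts. The Dox+ peak of 4.01, at chr5:122988526-122989278, overlapped no merged Dox- peak. At the start with the Dox- peak of 2.36, the merged Dox+ peak had 3.26. The highest replicate folds at any Kdm2b start were 2.77 and 2.51 in Dox+ and 4.53 and 2.43 in Dox-. The mean of these had the opposite order. Its relative Kdm2a had 3.66 and 3.04. Kdm2a was 1 of 3 members with a start peak in all 3 Dox+ replicate lists, at 5.63, 4.35 and 2.33, beside 4.54 and 2.23 in Dox- replicates 2 and 3. Kdm5b, an H3K4 demethylase gene, went the other way with 2.19 in Dox+ and 4.47 in Dox-. Kdm1a, the gene of LSD1, had 2.42 and 1.67, and Kdm6a, the gene of UTX, had 2.07 and 1.78. Kdm4b had 1.80 and 2.18, and Kdm4c had 1.96 and 3.26.

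Kdm6b, the gene of the H3K27 demethylase JMJD3, was the exception among the demethylases. It had no merged peak within 1000 bp of an annotated start, but the most densely covered window of the 46, with 17.8% of its window covered by peaks in Dox+ and 18.8% in Dox-. That window held 9 Dox+ and 6 Dox- peaks, which lay in the gene's introns, upstream of it, at the starts of Naa38 and Tmem88 and, for 1 Dox+ peak of fold 3.33, between genes downstream of it. Mbd3, with 7.45% and 9.05%, and Trim28, with 6.97% and 7.14%, came next, and in both windows several of the peaks lay at starts of other genes (Zbtb45, Chmp2a and Ube2m beside Trim28, Mex3d and Uqcr11 beside Mbd3). Sin3a had 2.48% and 6.46%, and Ehmt2 5.64% and 5.71%. When windows with any merged peak were ranked by the higher of their Dox+ and Dox- values, the least covered were those of Kdm6a (0.257% and 0.232%), Kdm4c (0.350% and 0.388%) and Hdac4 (0.509% and 0.518%). Dnmt3b, Smarcb1 and Suv39h2 had a merged Dox- peak and none in Dox+. The median over the 46 windows was 1.01% in Dox+ and 1.10% in Dox-.

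Of the 9 genes in the methyltransferase class, 6 had a start peak in Dox+ and 7 in Dox-. Ehmt2, the gene of G9a, had folds of 3.56 in Dox+ and 2.61 in Dox-, at a peak whose center was nearest to the start of the adjoining gene C2. Its relative Ehmt1, the gene of GLP, had 1.81 and 2.74. Dot1l, the H3K79 methyltransferase gene, had 2.04 and 1.91, and Wdr5, the gene of a core subunit of the H3K4 methyltransferase complexes, had 1.90 and 2.74 with a start peak in all 3 Dox- replicate lists. Of the H3K4 methyltransferase genes, Kmt2d had 2.59 and 1.98, and Kmt2a had 3.07 and 2.81. Suv39h1, on the X chromosome, was 1 of 2 members with no peak in either merged list. It had a peak of fold 2.15 at its start in the Dox+ list of replicate 2, and the Dox- list of replicate 2 held a peak elsewhere in its window.

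The DNA methyltransferase genes differed among themselves. Dnmt1, the gene of the maintenance enzyme, had a start peak of fold 3.89 in the merged Dox+ list and one of 1.91 in the merged Dox- list, and the peaks did not overlap each other. Its replicate lists gave 2.01 and 1.36 in Dox+ and 1.97 in Dox-, again the opposite order by the mean. The SMAD3 peak of the highest fold in any of the windows and either merged list was a Dox+ peak of fold 6.00 (99.1th percentile of its list) at chr9:20901599-20902619, in the Dnmt1 window but between genes, 3486 bp from the nearest start, that of Eif3g. It overlapped 2 Dox+ and no Dox- replicate lists. Dnmt3a had 2.40 and 2.39 at its start, and a further Dox+ peak of 3.85 in an intron 16128 bp from it that overlapped 1 Dox+ replicate list and no Dox- list. Dnmt3b had no peak in any Dox+ list. Of the methyl-CpG binding proteins, Mbd2 had 3.04 and 2.46.

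Among the remodelers, Smarcc1, the gene of the SWI/SNF core subunit BAF155, had the highest Dox+ start fold of the members at 4.91, beside 2.2 in Dox-. That peak lay at an annotated start of Smarcc1 and 13 bp from a start of Dhx30. The replicate lists gave 2.01 and 2.22 in Dox+ replicates 2 and 3 and 2.49 and 5.03 in Dox- replicates 1 and 2, which is the opposite order. Arid1a and Arid1b, which encode alternative subunits of the same complex, were the other members with a start peak in all 3 Dox+ lists, and they also had one in all 3 Dox- lists. The Arid1a folds were 2.82, 3.23 and 2.35 in Dox+ and 2.53, 2.47 and 2.49 in Dox-, and those of Arid1b were 3.25, 2.26 and 2.09 in Dox+ and 3.40, 2.29 and 3.81 in Dox-, so the groups overlapped for both genes. The catalytic subunit genes Smarca2 (2.90 and 2.35) and Smarca4 (2.68 and 3.12) had start peaks in both merged lists. Smarcb1, the gene of a core subunit, had none at its start in any list, and its only merged peak was a Dox- peak of 2.24 in an intron. The CHD remodeler genes Chd1 (1.99 and 2.24) and Chd4 (2.56 and 2.60) also had a start peak in both merged lists.

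All 7 deacetylase and corepressor genes and both acetyltransferase genes had start peaks in both merged lists. Hdac1 had the highest Dox+ fold of these at 4.68, beside 1.98 in Dox-. Its replicates were at 2.23 and 1.58 in Dox+ and at 2.79 and 2.58 in Dox-, again in the opposite order. Ep300, the gene of the acetyltransferase p300, had 1.99 and 2.49, with a start peak in all 3 Dox- lists. Its replicates were at 5.69 and 2.00 in Dox+ and at 2.68, 2.40 and 2.82 in Dox-, so the mean of the replicates had the opposite order and the groups overlapped. Its relative Crebbp had 1.88 and 2.29. Ncor1 had 2.59 and 2.67, Trim28, the gene of the corepressor KAP1, had 2.13 and 2.41, and Hdac7 had 1.96 and 2.23. Neither CAF-1 gene had a merged peak at its start, and Chaf1b had none in its window. Both had a start peak in the replicate 2 lists alone, Chaf1a at 1.83 in Dox+ and 2.24 in Dox-, and Chaf1b at 2.48 and 1.44.

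**Figure D2:**
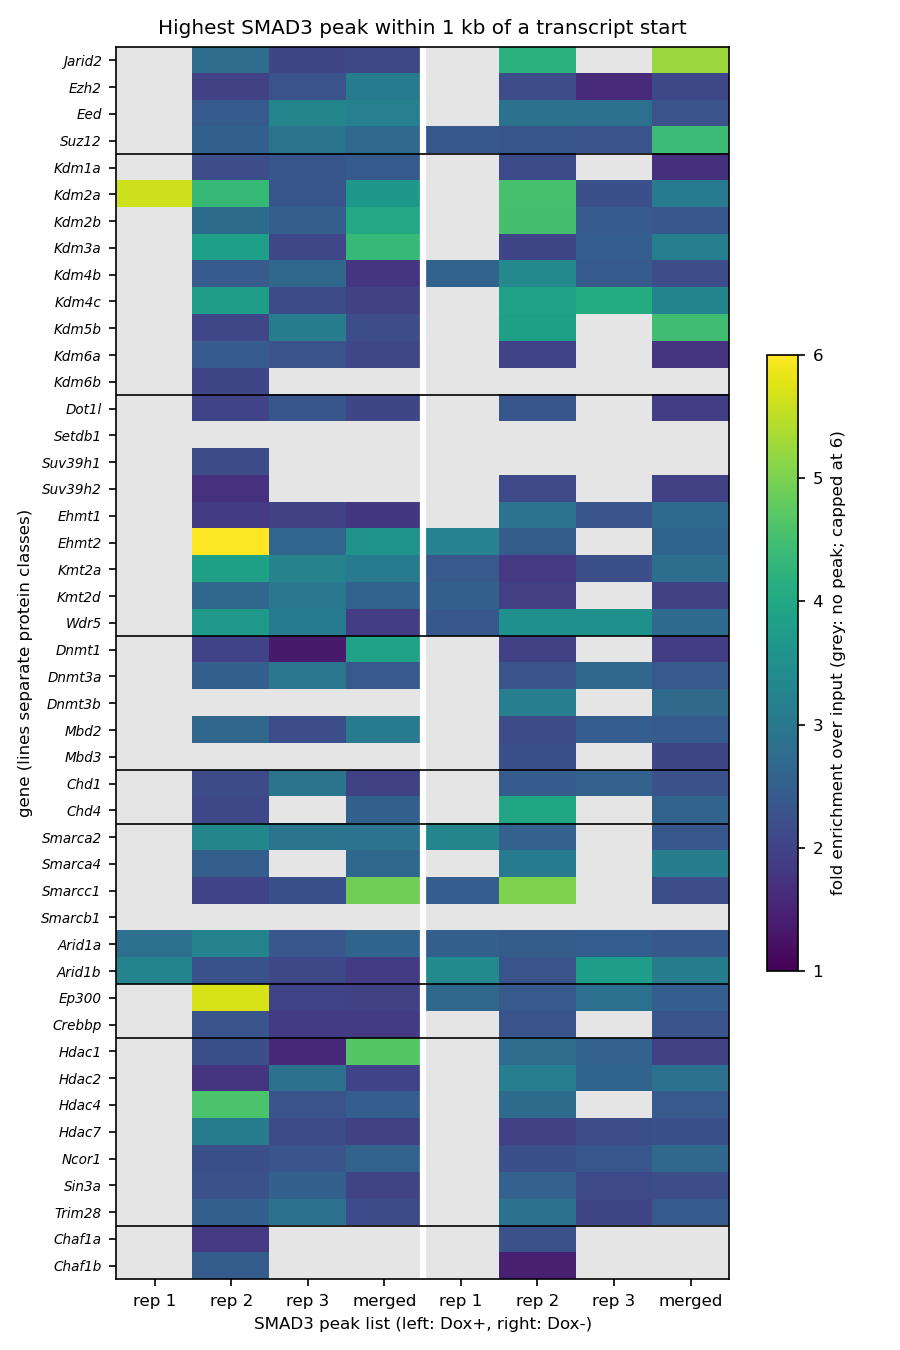
Highest fold enrichment over input of a SMAD3 peak within 1000 bp of a transcript start for each of the 46 genes (rows, grouped by class) in the Dox+ lists (left) and the Dox- lists (right), with grey for no peak and the color scale capped at 6. Replicate 1 of Dox+ has a start peak for only 3 genes, while replicate 2 of both conditions has one for 42.

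Over the 37 genes with a start peak in both merged lists, the fold was higher in Dox+ for 19 and in Dox- for 18. The fold of a gene is its highest at any start, so the peaks compared did not always overlap, as at Dnmt1, Kdm2b and Sin3a. Over all protein-coding genes with both peaks the share higher in Dox+ was 49.4%. The median fold was 2.49 in Dox+ and 2.40 in Dox-. The Dox- peaks were wider for 25 of the 37 genes, with medians of 1170 bp in Dox- and 874 bp in Dox+. This share of 67.6% stood against 56.7% of the other chromatin genes and 51.4% of all genes with both. The widths are from the merged lists, were not set against the replicate lists and were not tested. The order of the merged folds was the same as that of the mean fold of the replicate lists for 24 of the 37 genes. It was the opposite for the other 13, namely Chd1, Dnmt1, Dot1l, Eed, Ep300, Hdac1, Hdac7, Kdm2b, Sin3a, Smarcc1, Suz12, Trim28 and Wdr5. The merged Dox+ fold lay outside the range of the gene's own Dox+ replicate folds for 27. None of the differences in fold above was tested, and none is reported as a change.

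**Figure D3:**
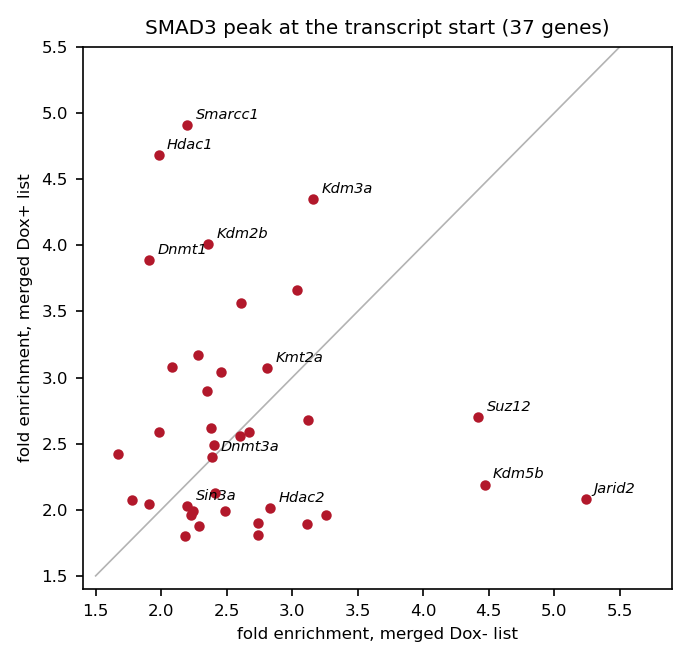
Fold enrichment of the highest SMAD3 peak at a transcript start in the merged Dox+ list (vertical axis) against the merged Dox- list (horizontal axis), 1 point for each of the 37 genes with both, with the line of equal values. The points fall on both sides of the line (19 above, 18 below), and Smarcc1, Hdac1 and Jarid2 lie farthest from it.

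The count of members per replicate list did not differ between conditions beyond the spread of the replicates. Windows with a peak numbered 5, 45 and 40 in the Dox+ lists and 14, 46 and 29 in the Dox- lists, which is 30.0 ± 21.8 and 29.7 ± 16.0 (mean ± SD, n = 3 each). The counts followed the length of the lists, since in both conditions the fewest members came from replicate 1, the shortest list, and the most from replicate 2, the longest. In the shortest list 10.9% of members had a peak against 2.57% of all genes, and in the longest 97.8% against 62.9%.

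To compare single genes across replicates, the covered bp in each window was divided by the Mb covered by the list. The replicate values of the conditions did not overlap for 1 member, Kmt2a, which was lower in Dox+. Its values were 0, 85.8 and 112 bp per Mb of list in Dox+ and 382, 230 and 337 in Dox-, with means of 65.9 ± 58.6 and 316 ± 78.0 (SD, n = 3 each; exact two-sided permutation test p = 0.1, the smallest that 3 against 3 allows). The fold at the Kmt2a start went the other way, at 3.86 and 3.24 in Dox+ replicates 2 and 3, with no start peak in replicate 1, and at 2.40, 1.83 and 2.23 in Dox-. Over all protein-coding genes, 1.66% were lower in Dox+ without overlap and 0.506% were higher, and none of the members was higher. Without Dox+ replicate 1, the shortest list, 4 members were higher in Dox+ (Dnmt1, Hdac4, Kdm1a and Ncor1) and 2 lower (Arid1a and Kmt2a), beside 13.7% and 1.86% of all protein-coding genes. When any other list was left out, 2 to 7 members were lower, beside 2.14% to 5.54% of all genes, and at most 1 was higher. With all 6 lists the members, at 1 of 46, were near the background, and no gene could pass a threshold of 0.05 in this design. Within the gene span alone, without the 10 kb flanks, no member's groups were apart. Without scaling to the length of the list, the Kmt2a groups overlapped, at 0, 1473 and 833 bp in Dox+ and 290, 3102 and 723 bp in Dox-.

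The authors' table of SMAD3 sites that differ between the conditions lists 2080 sites, 1176 higher and 904 lower in Dox+. Each has a mean concentration per group, the log2 of normalised reads in the site. The authors selected them from the same libraries and gave no value per replicate, so the following values are descriptions with no test. A site higher in Dox+ lay in the windows of 2 members, beside 6.64% of all protein-coding genes. A site lower in Dox+ lay in the windows of 3 members, beside 3.84%. Weighted to the members' span classes, these shares were 7.24% and 4.83%, where the members' own were 4.35% and 6.52%. Of the 84 regions in the windows that were present in at least 2 of the 6 SMAD3 replicate lists, 5.95% were listed, against 15.7% of all 13217 such regions.

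The 2 sites higher in Dox+ lay in introns. At Kdm6b the site chr11:69402343-69402694, 1521 bp from the nearest annotated start of the gene, had a mean log2 concentration of 3.29 in Dox+ and 0.44 in Dox-, a difference of 2.85. It was overlapped by peaks of Dox+ replicates 2 and 3 (folds 1.21 and 2.85) and of no Dox- replicate. At Hdac4, which encodes a class IIa deacetylase, the site chr1:92113327-92114035 spans an annotated alternative start inside the gene and had means of 2.34 and 0.90, a difference of 1.43, with peaks in Dox+ replicates 2 and 3 (1.81 and 2.15) and in no Dox- replicate. Both sites were therefore present in the same 2 Dox+ replicate lists and absent from all 3 Dox- replicate lists. The merged Dox+ list held a peak at the Kdm6b site and none at the Hdac4 site.

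The 3 sites lower in Dox+ each spanned an annotated transcript start. At Dnmt3a the site chr12:3806337-3808292 had means of 4.34 in Dox+ and 5.36 in Dox-. At Hdac2, a class I deacetylase gene, chr10:36974031-36975328 had 3.56 and 4.88. Sin3a encodes the scaffold of the SIN3 deacetylase complex, and its site chr9:57075240-57077355 had 3.5 and 4.84. The differences, -1.01, -1.32 and -1.34, were smaller in size than the median of the 904 lower sites, -1.78. All 3 sites kept peaks in Dox+ replicates 2 and 3 as well as in Dox- replicates 2 and 3, with folds of 2.53 and 2.97 in Dox+ and 2.31 and 2.69 in Dox- at Dnmt3a, 1.78 and 2.87 against 3.13 and 2.62 at Hdac2, and 2.24 and 1.76 against 2.14 and 2.1 at Sin3a. The replicate list folds of the conditions overlapped at Dnmt3a, Hdac2 and Sin3a, and replicate lists of both conditions held SMAD3 peaks there. Both merged lists held a peak at the Dnmt3a and Hdac2 sites. At the Sin3a site only the merged Dox- list did.

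**Figure D4:**
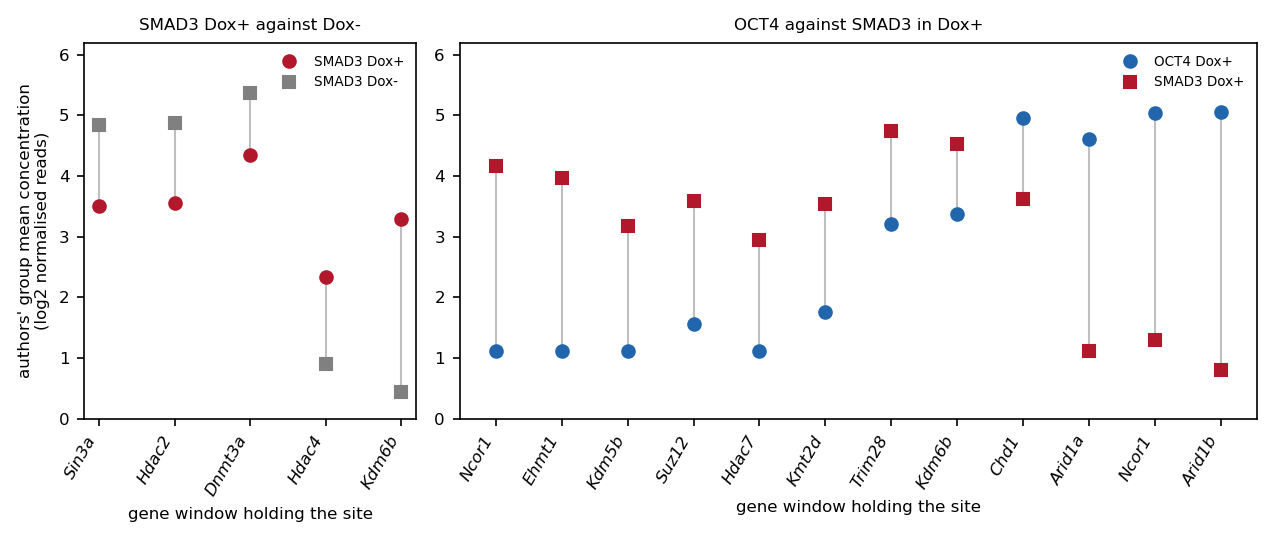
The authors' group mean concentrations (log2 normalised reads) at the listed sites in the members' windows, for SMAD3 in Dox+ against Dox- (left, 5 sites) and OCT4 against SMAD3 in Dox+ (right, 12 sites), with a line joining the values of a site. At Kdm6b the SMAD3 means are 3.29 and 0.44, the widest gap on the left.

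These sites differed in base composition, and their sequences are printed for that reason, each from the GRCm38.p6 reference, plus strand, 5′ to 3′. The stretch of 100 bp on each side of the center of the sites lower in Dox+ had a GC content of 63.7% at Sin3a, 77.1% at Hdac2 and 79.1% at Dnmt3a, above the median of 51.7% of all 904 lower sites. At the sites higher in Dox+ it was 48.3% at Kdm6b and 49.3% at Hdac4, below the median of 53.2% of all 1176 higher sites. The ratio of observed to expected CpG was 1.01, 0.803 and 1.23 at Sin3a, Hdac2 and Dnmt3a, and 0.345 and 0.0852 at Kdm6b and Hdac4. The median ratio over all sites was 0.324 for the lower and 0.312 for the higher sites. The members' 3 lower sites thus had more GC and CpG than their 2 higher sites, although the Hdac4 site also spans an annotated start. The medians over all sites of the 2 directions lay close together. The stretches shown are of the same length, from inside each site and as near to its center as allowed by leaving out annotated untranslated regions. They lie at chr9:57076175-57076375 (Sin3a), chr10:36974752-36974952 (Hdac2), chr12:3807255-3807455 (Dnmt3a), chr11:69402418-69402618 (Kdm6b) and chr1:92113581-92113781 (Hdac4). Capitals mark GGCGC and GGCCG, the GC-rich letters SMAD proteins are known to bind, on either strand, in the 3 lower sites. No capitals are printed in the 2 higher sites, where the SMAD box and the AP-1 motif were searched.
Sin3a: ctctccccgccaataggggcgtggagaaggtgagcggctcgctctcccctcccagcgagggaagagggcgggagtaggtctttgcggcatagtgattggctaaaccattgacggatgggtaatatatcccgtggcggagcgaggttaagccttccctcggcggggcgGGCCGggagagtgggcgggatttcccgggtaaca
Hdac2: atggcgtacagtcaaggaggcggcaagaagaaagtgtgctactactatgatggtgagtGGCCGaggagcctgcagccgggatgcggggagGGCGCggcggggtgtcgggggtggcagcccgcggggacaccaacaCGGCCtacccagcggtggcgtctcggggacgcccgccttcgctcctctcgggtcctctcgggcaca
Dnmt3a: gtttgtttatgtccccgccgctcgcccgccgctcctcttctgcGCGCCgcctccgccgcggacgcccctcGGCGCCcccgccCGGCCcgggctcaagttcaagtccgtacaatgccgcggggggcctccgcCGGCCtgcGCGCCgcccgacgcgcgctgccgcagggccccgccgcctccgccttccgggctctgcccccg
Kdm6b: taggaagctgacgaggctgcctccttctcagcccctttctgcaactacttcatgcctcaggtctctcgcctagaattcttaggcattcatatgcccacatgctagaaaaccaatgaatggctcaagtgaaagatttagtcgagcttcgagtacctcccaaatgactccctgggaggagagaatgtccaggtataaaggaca
Hdac4: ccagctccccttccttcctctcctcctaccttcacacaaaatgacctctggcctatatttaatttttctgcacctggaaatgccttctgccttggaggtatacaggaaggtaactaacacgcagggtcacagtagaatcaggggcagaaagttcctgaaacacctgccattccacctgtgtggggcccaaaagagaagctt

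The SMAD box CAGAC was found on neither strand at Kdm6b or Hdac4. The letters of the AP-1 motif, TGANTCA, were not found there either. Over the same central stretch of all sites higher in Dox+, 37.5% held the SMAD box and 8.08% the AP-1 letters. Of the members' lower sites, Hdac2 held the SMAD box in this stretch, and Sin3a and Dnmt3a did not. None of them held the AP-1 letters. Over all lower sites the shares were 38.9% and 10.1%. No difference in motifs between the directions was tested. At least 1 of the GC-rich SMAD letters marked above was found in 34.7% of the lower and 36.5% of the higher sites, and in 3 of 3 and 0 of 2 of the members' central stretches. A match is a stretch of letters and not a measured binding site.

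OCT4 regions were few at these genes. A merged OCT4 region lay in the windows of 5 members, beside 4.85% of all protein-coding genes and 9.23% when weighted to the members' span classes, so the members' 10.9% was near the share of genes of their length. None lay within 1000 bp of an own start. The 5 regions were at Ncor1, Arid1b, Arid1a, Kmt2d and Kdm1a, 1 in each window. The regions of Ncor1, Arid1b and Arid1a lay in introns of these genes, 2343, 20122 and 14334 bp from the nearest annotated start of the gene. The region in the Kmt2d window lay in an intron of the neighbour Prkag1, and that in the Kdm1a window lay between genes, 77 bp from the start of Tex46. Thus 3 of the 5 were inside the member itself.

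The sequences around the 5 summits are shown because few held the letters searched, an octamer with at most 1 mismatch or exact CATTGT. Looser matches and joined SOX and octamer letters were not searched, so the stretches may hold them. Each stretch is from GRCm38.p6, plus strand, 5′ to 3′, with 100 bp on each side of the summit except at Kdm1a, where the stretch is shifted to leave out an annotated untranslated region of Tex46. The regions are chr11:62318644-62318844 (Ncor1), chr17:5016732-5016932 (Arid1b), chr4:133706238-133706438 (Arid1a), chr15:98822262-98822462 (Kmt2d) and chr4:136610236-136610436 (Kdm1a). Capitals mark the octamer ATGCAAAT with at most 1 mismatch and CATTGT, the SOX letters, on either strand.
Ncor1: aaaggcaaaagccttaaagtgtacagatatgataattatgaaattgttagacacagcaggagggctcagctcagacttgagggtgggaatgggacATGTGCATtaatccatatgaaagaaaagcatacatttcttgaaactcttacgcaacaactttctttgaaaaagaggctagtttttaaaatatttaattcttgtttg
Arid1b: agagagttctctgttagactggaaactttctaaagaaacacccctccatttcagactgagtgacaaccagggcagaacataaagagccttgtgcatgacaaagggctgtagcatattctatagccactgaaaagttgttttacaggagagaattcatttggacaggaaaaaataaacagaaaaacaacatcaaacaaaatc
Arid1a: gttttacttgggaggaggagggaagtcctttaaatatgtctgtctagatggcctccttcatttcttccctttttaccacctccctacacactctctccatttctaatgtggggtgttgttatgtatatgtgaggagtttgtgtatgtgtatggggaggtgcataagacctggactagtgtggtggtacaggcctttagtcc
Kmt2d: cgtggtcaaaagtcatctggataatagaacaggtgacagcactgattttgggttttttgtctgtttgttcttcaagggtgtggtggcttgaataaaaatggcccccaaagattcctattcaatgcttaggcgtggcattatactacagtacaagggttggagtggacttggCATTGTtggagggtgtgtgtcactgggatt
Kdm1a: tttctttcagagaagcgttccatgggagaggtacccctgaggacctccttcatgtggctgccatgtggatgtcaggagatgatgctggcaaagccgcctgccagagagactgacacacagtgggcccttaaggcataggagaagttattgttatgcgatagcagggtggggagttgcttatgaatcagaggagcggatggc

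Ncor1 alone among the 5 had an octamer of at most 1 mismatch, and Kmt2d alone had CATTGT. Over the stretches of that length at all 2022 OCT4 summits, 54.3% held such an octamer, 29.3% held CATTGT and 69.2% held either. The GC content was 34.8% at Ncor1, 38.3% at Arid1b, 44.3% at Kmt2d, 45.3% at Arid1a and 54.7% at Kdm1a, where the median of all summits was 40.3%. CAGAC was found at 4 of the 5, all but Kdm1a, and at 30.9% of all summits.

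The replicate lists give a measure of how firm each region is. The Arid1b region (fold 6.27 in the merged list) was in OCT4 replicates 1 and 2, at 6.61 and 5.42. The Ncor1 region (9.04, at the 89.7th percentile of the merged list) was in replicate 2 at 9.57, and the Arid1a region (5.44) in replicate 2 at 5.42. The Kmt2d region (5.23) and the Kdm1a region (4.35, at the 8.26th percentile) were in no replicate list, as were 29.4% of all merged regions. Only Arid1b was thus found in at least 2 OCT4 lists. A further OCT4 peak, of fold 8.33 and 11 bp from a start of Kmt2a (chr9:44881307-44881528), was in replicate 3 and not in the merged list.

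SMAD3 coverage was higher in Dox+ than in Dox- cells at 4 of the 5 OCT4 regions. In the central 200 bp, the pooled input-subtracted SMAD3 coverage at Arid1b was 13.6 in Dox+ and 4.39 in Dox-, where 1 is the mean coverage of the genome. At Kmt2d it was 12 and 0.923, at Arid1a 8.44 and 3.52, and at Ncor1 5.47 and -1.35. Kdm1a, the weakest OCT4 region, had -1.25 and 0.305. The differences were 9.19, 11, 4.92, 6.82 and -1.55, with a median of 6.82, and the median over all 2022 OCT4 regions was 7.25, with 95.5% higher in Dox+. Over the central 1000 bp the median was 1.37 at the members' regions and 3.22 over all regions, and the difference was 0.233 at Arid1b and 0.141 at Kdm1a. In the central 200 bp Kdm1a lay at the 1.98th percentile of the differences and the other regions between the 30.7th and the 75.1th. The signals are pooled over replicates and have no replicate error.

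**Figure D5:**
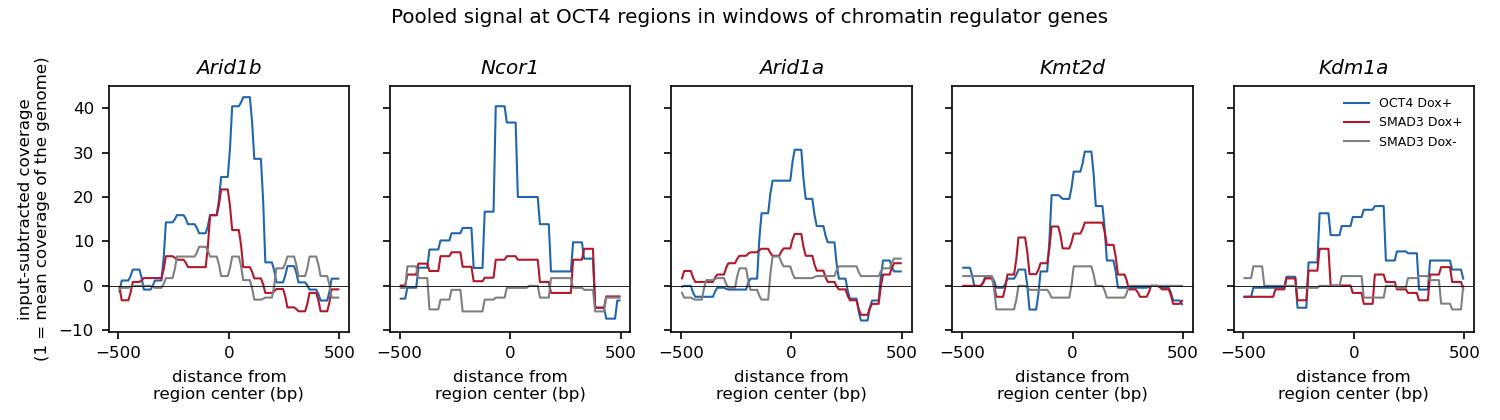
Pooled input-subtracted coverage (vertical axis, in units of the mean coverage of the genome) against distance from the region center (bp) at the 5 OCT4 regions, for OCT4 Dox+ (blue), SMAD3 Dox+ (red) and SMAD3 Dox- (grey). The SMAD3 Dox+ line rises with OCT4 at Arid1a and Kmt2d and varies around 0 at Kdm1a, where its mean over the central 200 bp is -1.25. At Arid1b the SMAD3 Dox+ line is highest at -35 to -5 bp (21.69) and the OCT4 line at 65 to 95 bp (42.45).

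In the SMAD3 lists these sites rested on a single replicate. The Dox+ list of replicate 2 had a peak at 4 of the 5 regions, at folds of 2.48 (Arid1b), 3.13 (Ncor1), 2.24 (Kmt2d) and 1.37 (Arid1a). The lists of Dox+ replicates 1 and 3 and of all Dox- replicates had a peak at none of the 5. Over all 2022 OCT4 regions, the overlap was 51.3% with Dox+ replicate 2, 9.84% with replicate 3 and 0.989% with replicate 1, and at most 1.68% with a Dox- list. The merged Dox+ list kept a peak at Kmt2d alone among the 5, with a fold of 3.56, beside 24.9% of all 2022 OCT4 regions.

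Another table of the authors holds sites that differ between OCT4 and SMAD3 in Dox+ cells. A site higher for OCT4 lay in the windows of 4 members, beside 4.16% of all protein-coding genes. A site higher for SMAD3 lay in the windows of 8, beside 5.14%. Weighted to the members' span classes, these shares were 7.16% and 5.01%, where the members' own were 8.70% and 17.4%. The share for OCT4 was thus near that of genes of the members' length. Neither was tested. The sites higher for OCT4 were those of Arid1b (5.05 for OCT4 and 0.80 for SMAD3), Ncor1 (5.03 and 1.29) and Arid1a (4.61 and 1.11), and a site at the start of Chd1 (4.95 and 3.62) with no merged OCT4 region. Of the sites higher for SMAD3, those of Ncor1, Ehmt1 and Suz12 lay across the genes' own starts. Ncor1 held both kinds, since at its start SMAD3 was at 4.17 and OCT4 at 1.12, while in its intron the order was the reverse. At Ehmt1 the means were 1.12 for OCT4 and 3.97 for SMAD3, and at Suz12 1.56 and 3.59. The other windows were those of Kdm5b, Kdm6b, Hdac7, Kmt2d and Trim28, with differences (OCT4 minus SMAD3) between -2.06 and -1.15. The sites in the Hdac7, Kmt2d and Trim28 windows lay nearest to the starts of Slc48a1, Prkag1 and Chmp2a, and those of Kdm5b and Kdm6b lay 2946 and 1343 bp from the nearest own start.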

How the data were processed

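OCT4 and SMAD3 ChIP-seq was available for 13 samples, grouped by antibody and dox treatment as labelled. The authors trimmed reads (Trimmomatic 0.36), aligned them to mm10 with Bowtie2, removed duplicates (Picard 2.3.0) and called peaks with MACS2 2.1.0 against pooled inputs, per replicate and on pooled replicates (narrow peaks for OCT4, broad peaks for SMAD3). For each peak, the deposited lists hold the ratio of ChIP to input signal, called fold enrichment here, and the −log10 of the q-value, which MACS2 averages over the region for broad peaks. For the matrices the authors subtracted pooled input from pooled ChIP coverage at a scale on which the genome averages 1, and this signed value was treated as a score. From the authors' DiffBind tables only the log2 mean concentrations of the groups were used. Their fold changes, p-values and false discovery rates were not, and gapped peaks were not used.

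Gene windows, overlaps of at least 1 bp and exact two-sided permutation tests were computed in Python 3.11.15 with numpy 2.4.6 and pandas 2.3.3, sequences were read with pysam 0.24.0 from GRCm38.p6, whose chromosome lengths held all peaks, and the routines were tested on simulated data. OCT4 entries that differ only in their summit were collapsed, which left 2022 merged regions. Every member with an OCT4 region, a listed site, replicate groups apart or no merged SMAD3 peak was named, with the 8 highest start folds and the 5 most and 5 least covered windows. The members and lists were chosen with earlier results of these data known. Alternatives were other flanks, stricter q-values, replicate support, other scalings, leaving out replicates and a replicate block.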

Additional observations from a re-analysis of the deposited data

How the results depend on the processing

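Of 68 alternatives over 10 results, 42 left the value within the limits set for it (1.5 times for a count) and 26 moved it. The 42 include every alternative for the difference in mean members per list, which ran from -7.50 to 12.8. The tally therefore does not show that this difference was stable. The 5 members with an OCT4 region became 3 with no flank or with a 2 kb flank (3.64% and 3.90% of all protein-coding genes), 8 with a 50 kb flank (8.90%) and 1 when at least 2 replicate lists were required, and 1 to 3 when only regions found in the other replicates were kept. With a −log10 q of at least 2, the members with a SMAD3 peak fell from 41 to 26 in Dox+ and from 44 to 24 in Dox- (27.1% and 21.1% of all genes), and those with a start peak from 37 to 20 and from 40 to 17 (18.5% and 14.0%). Keeping only merged SMAD3 peaks found in the other replicates gave 40 to 41 in Dox+ and 32 to 44 in Dox-, with 32 without replicate 2. The merged peaks were still those called on all replicates, so this does not show what a list called without a replicate would hold. With a 50 kb flank, 5 members had a listed site higher and 5 a listed site lower in Dox+, beside 13.9% and 7.90% of all genes, and with an absolute difference of at least 2 these were 1 and 0, beside 2.99% and 1.13%. The mean members per list differed by 0.333, far less than the spread between replicates, and the difference was below 0 in 4 alternatives. It was -0.667 with lists reduced to their strongest peaks and -7.50 to 12.8 when a replicate was left out, with 12.8 without Dox+ replicate 1 and -7.50 without Dox- replicate 1. The members whose replicate groups did not overlap numbered 1, and 0 with unscaled bp, with lists reduced to their 420 strongest peaks or with no flank, and 2 to 7 when a replicate was left out, Kmt2a among them and lower in Dox+ each time. Without Dox- replicate 1 there were 7 lower (5.54% of all genes), without Dox- replicate 2 there were 5 lower and 1 higher (4.25% and 0.788%), and without Dox- replicate 3 there were 2 lower (2.90%). Without Dox+ replicate 1 there were 2 lower and 4 higher (1.86% and 13.7%), without Dox+ replicate 2 there were 2 lower (2.14%) and without Dox+ replicate 3 there were 4 lower (3.37%). The median SMAD3 difference at the OCT4 regions was 6.82 in the central 200 bp and 1.37 in the central 1000 bp, beside 7.25 and 3.22 over all OCT4 regions. The causes were not tested.

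With the replicate number as a block, the difference in mean members stayed 0.333, and 4 members (Ep300, Kmt2a, Suz12 and Wdr5) were lower in Dox+ in every same-numbered pair, beside 3.01% of all genes, and 0 were higher. Deviations of same-numbered samples correlated at 0.12, 0.04 and 0.04 over 14706 genes, and Dox+ replicate 3 correlated best with Dox- replicate 2 (0.07), so the numbers were not taken to pair the samples, and whether same-numbered samples share an origin is not known. Lists as short as 420 peaks limit what could be detected.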
